A study of Trachinotus blochii with 22 samples.

Results

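miR-143 and miR-145 were followed through a small RNA sequencing table of golden pompano livers. Golden pompano (Trachinotus blochii) is a farmed sea fish. Members were all rows of the deposited table whose name after the species prefix was miR-143 or miR-145, with any letter, copy number or arm. There were 16 such rows among 2108, 6 of miR-143 and 10 of miR-145. After rows with identical values in all libraries were counted once, 12 of 1400 distinct rows remained, 5 of miR-143 and 7 of miR-145. Of these, 9 had at least 1 CPM (reads scaled to a sum of 1000000 per library) in at least 2 libraries and were tested among 602 rows.

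The study asked how liver miRNAs respond to low oxygen and to rapid or gradual return of oxygen. The 22 libraries fell into 8 groups, which were normoxia at 0 h (2 libraries), normoxia at 12 h (3), hypoxia at 0 h (3), hypoxia at 12 h (3), rapid reoxygenation at 3 h (3 libraries) and 12 h (2 libraries), and gradual reoxygenation with 3 libraries at each of these times. All came from whole liver of 1 species. The labels name no oxygen level, no age of the fish, no meaning of the 0 h point, and do not say whether each library was made from a separate fish, so the p-values measure the spread between these libraries, which may be technical.

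In vertebrates, miR-143 and miR-145 are processed from a shared primary transcript, and they carry different seed sequences. In mammals both are abundant in smooth muscle cells of vessels and gut and in related perivascular and mesenchymal cells, where they favour the contractile state, and in mouse and human cells miR-145 represses the transcription factors KLF4 and KLF5. In liver such cells lie in vessel walls, around bile ducts and along the sinusoids, and hepatocytes are marked by miR-122. Each hairpin yields a 5p and a 3p arm, of which the 3p arm of miR-143 and the 5p arm of miR-145 are the usual guide strands.

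The arms differed widely in level, and near-copy rows named after different species carried almost the same reads. The most abundant miR-143 row, efu-miR-143, had 13014851 reads over all libraries, and mmu-miR-143-3p had 10 fewer. ola-miR-143 held 99.2% of the reads of efu-miR-143, between 98.96% and 99.34% in single libraries. These 3 rows are therefore not separate measurements, and efu-miR-143 stands for miR-143 below. The remaining 3p row, pma-miR-143-3p, held 0.0121% of the reads of efu-miR-143 and lay between 1.19 and 7.35 CPM. The 5p arm was represented by mdo-miR-143-5p, to which mmu-miR-143-5p was identical.

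For miR-145, dre-miR-145-5p and mmu-miR-145a-5p were identical and ola-miR-145 had 3 reads fewer of 38569. The 3p arm was represented by hsa-miR-145-3p, identical to rno-miR-145-3p. mdo-miR-145-3p and mmu-miR-145a-3p, identical to each other, had 5 reads fewer. The 3 rows that were too low to test were oan-miR-145-5p with 212 reads over all libraries, xla-miR-145-5p with 37 reads and 8 libraries at 0, and mmu-miR-145b with 1 read in 1 library. Counts of member rows below include the near copies of either miRNA, which are not separate measurements.

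miR-143 was one of the most abundant miRNAs of the liver libraries and miR-145 was of middle abundance. Over the 22 libraries miR-143 averaged 22391 ± 11057 CPM (SD), from 12804 to 65322 CPM. It made up between 1.28% and 6.53% of a library's column total, with a median of 2.03%, a total in which a read counts once in each row it matches. It ranked between 2 and 10 among 729 miRNA family names, with a median rank of 5. The 5p arm of miR-145 averaged 66.6 ± 37.8 CPM (SD, n = 22), from 28.3 to 213 CPM, with ranks between 76 and 125. The minor arms averaged 13.3 ± 7.89 CPM for miR-143-5p and 23.6 ± 13.9 CPM for miR-145-3p (SD, n = 22). CPM has no length scaling, and mature miRNAs are of nearly equal length. Adapter ligation and amplification favour some small RNAs over others, so a ratio of levels between miRNAs is a ratio of reads.

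The column totals came to between 17483816 and 33793069 assignments of a read to a row per library, which is more than the number of reads, so that 1 read was worth 0.0296 to 0.0572 CPM, and the 4 arms had at least 164 reads in every library. One library of normoxia at 0 h, numbered 2 in the table, stood apart from the rest. Its distance from the median library, as a root mean square of log2 differences over the tested rows, was 1.34, against 0.345 to 0.868 in the other libraries. It had the highest level of all 22 libraries for both arms of miR-143 and both arms of miR-145. The columns taken as normoxia at 0 h carry no time in their names and were placed by the number of libraries per group. Column letters are unexplained, so the treatment of the other columns was also placed by such counts, with times read from the names. Each comparison between treatments, and each with normoxia at 0 h, rests on that placement. The authors' deposited means of normoxia at 0 h and of rapid reoxygenation at 12 h include a further library that was not analysed here.

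The mean miR-143 level was highest in normoxia at 0 h, which rested on library 2 of that group. There it was 65322 CPM in library 2 and 26755 CPM in library 3. In normoxia at 12 h it was 14376, 13551 and 18032 CPM. In hypoxia at 0 h it was 34859, 26727 and 23098 CPM, so that library 3 of normoxia at 0 h lay within the hypoxic range. All libraries of normoxia at 12 h were thus below all libraries at 0 h, whether normoxic or hypoxic. In hypoxia at 12 h the values were 21657, 19500 and 20707 CPM, the narrowest spread of any group. After rapid reoxygenation miR-143 was at 19866, 22330 and 17796 CPM at 3 h, and at 12804 and 28055 CPM at 12 h. After gradual reoxygenation it was at 13421, 17203 and 17003 CPM at 3 h, and at 14246, 23922 and 21366 CPM at 12 h. The rapid 12 h pair differed from each other more than the group means of all reoxygenation groups did.

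Ordered by mean, miR-143 stood at 46038 ± 27271 CPM in normoxia at 0 h (SD, n = 2), 28228 ± 6023 in hypoxia at 0 h (n = 3), 20621 ± 1081 in hypoxia at 12 h (n = 3) and 20429 ± 10784 in rapid reoxygenation at 12 h (n = 2). Then came 19997 ± 2270 in rapid reoxygenation at 3 h, 19845 ± 5015 in gradual reoxygenation at 12 h, 15876 ± 2128 in gradual reoxygenation at 3 h and 15320 ± 2385 in normoxia at 12 h (SD, n = 3 each). Among neighbours in this order, hypoxia at 0 h and hypoxia at 12 h had ranges that did not overlap and a gap above the larger SD, and no other pair of neighbours did. The authors' deposited mean for normoxia at 0 h was 37278 CPM, also the highest of their 8 means, and that for rapid reoxygenation at 12 h was 16319 CPM.

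**Figure D1:**
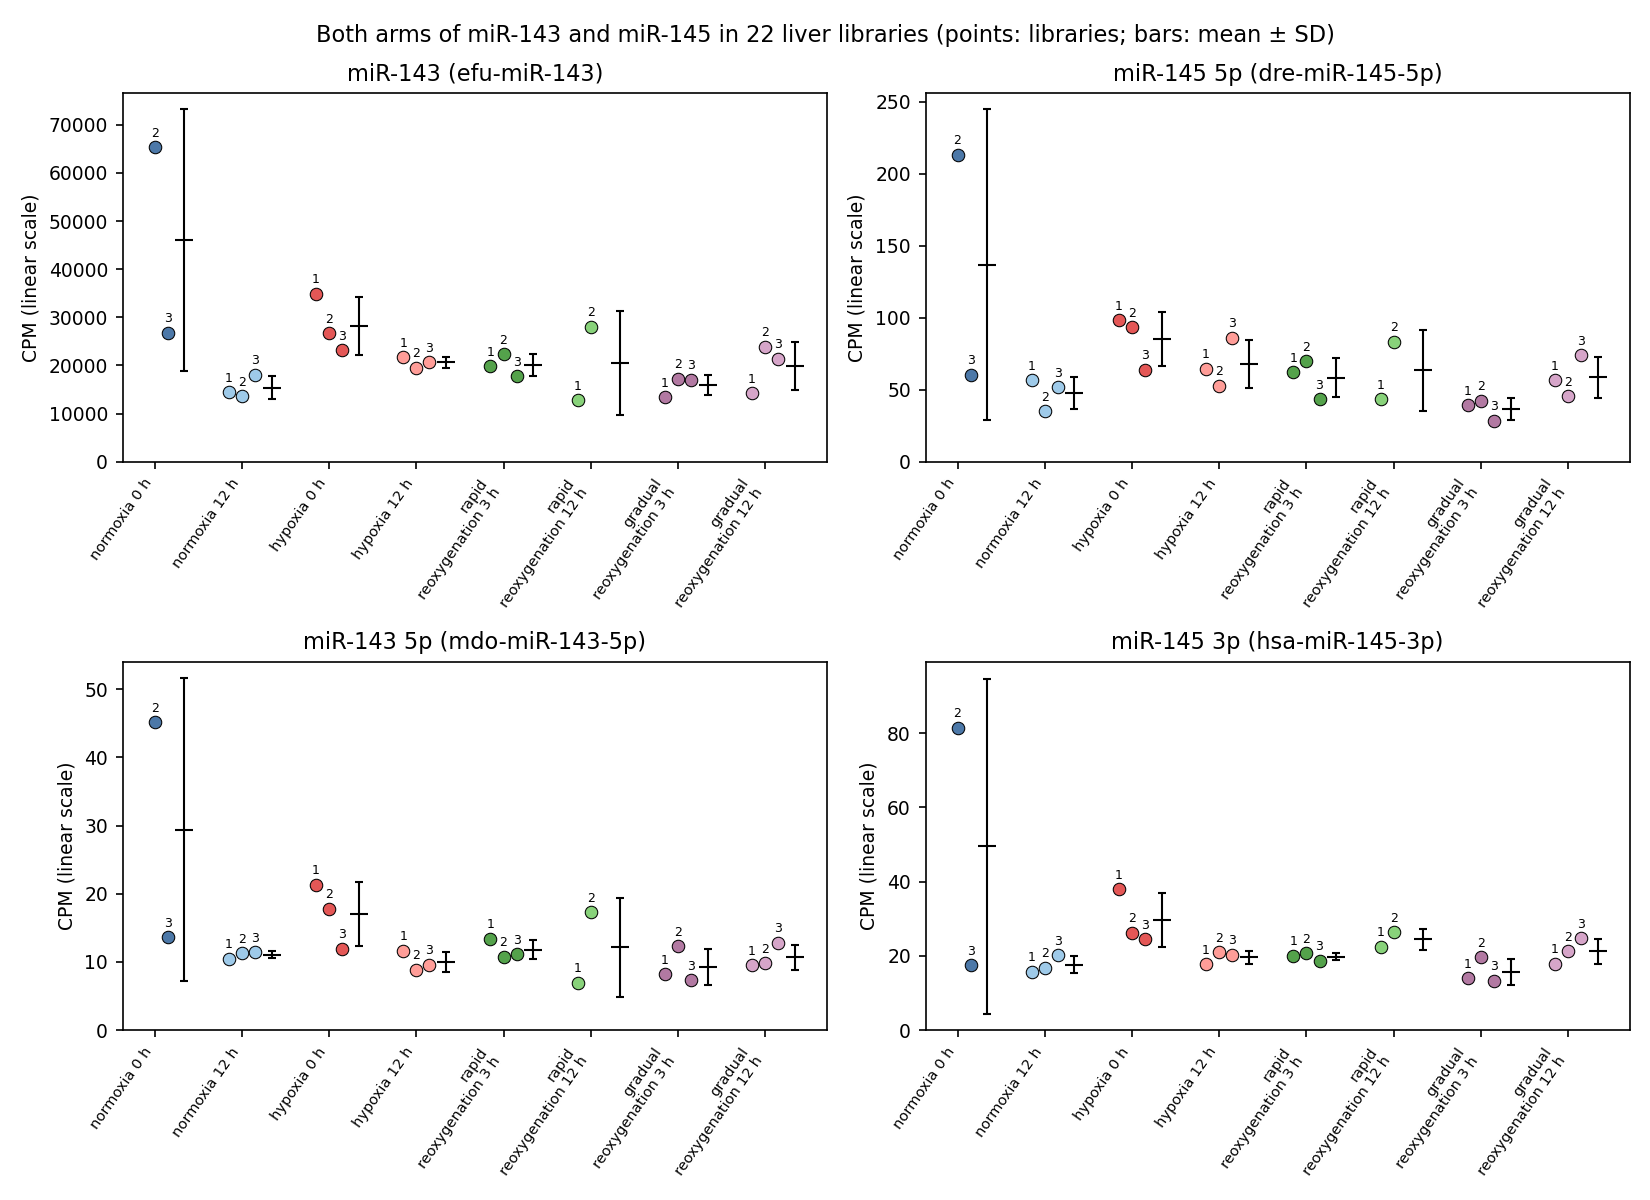
Levels of both arms of miR-143 and miR-145 in each of the 22 libraries, by group, in CPM on a linear axis from 0, with points numbered by library and bars for the group mean ± SD. Library 2 of normoxia at 0 h lies highest in all 4 panels, at 65322 CPM for miR-143 and 213 CPM for miR-145-5p.

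miR-145 followed much the same order of groups. Its 5p arm was at 213 and 60.5 CPM in normoxia at 0 h, and at 56.6, 35.01 and 51.9 CPM in normoxia at 12 h. In hypoxia it was at 98.2, 93.4 and 64.0 CPM at 0 h and at 64.5, 52.9 and 86.1 CPM at 12 h. The hypoxia groups overlapped each other, and both normoxia 0 h libraries lay above all 3 normoxia 12 h libraries. After rapid reoxygenation it was at 62.3, 69.8 and 43.4 CPM at 3 h and at 43.5 and 83.3 CPM at 12 h. After gradual reoxygenation it was at 39.1, 42.4 and 28.3 CPM at 3 h and at 56.6, 45.7 and 73.8 CPM at 12 h. The 3 gradual 3 h libraries lay below every library of hypoxia at 0 h and every library of rapid reoxygenation at 3 h. By mean, the order ran from 137 ± 108 CPM in normoxia at 0 h (SD, n = 2) and 85.2 ± 18.5 in hypoxia at 0 h to 47.8 ± 11.3 in normoxia at 12 h and 36.6 ± 7.36 in gradual reoxygenation at 3 h (SD, n = 3 each). All neighbouring groups in the miR-145 order overlapped.

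The minor arms had the same highest library. miR-143-5p was at 45.1 CPM in library 2 of normoxia at 0 h, 13.7 CPM in library 3, and between 6.97 and 21.3 CPM in the other 20 libraries. miR-145-3p was at 81.4 and 17.6 CPM in those normoxia 0 h libraries and between 13.3 and 38.04 CPM elsewhere. In both arms the second highest library was library 1 of hypoxia at 0 h. The highest value was 1.87 times the second highest for miR-143, 2.17 times for miR-145-5p, 2.12 times for miR-143-5p and 2.14 times for miR-145-3p.

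The 4 arms varied together from library to library. log2(CPM + 1) of miR-143 and of miR-145-5p correlated over the 22 libraries with Pearson's r = 0.85 (permutation p = 1e-05, the smallest that 100000 permutations can give, adjusted p = 2e-05 over 6 relations) and Spearman's rho = 0.79 (permutation p = 7e-05, adjusted p = 0.00036). Without the 2 libraries farthest from the median of miR-143, r was 0.67. For the deviations from the group means r was 0.72. The other 5 pairs of arms had r between 0.85 and 0.89, and rho between 0.52 for the minor arms with each other and 0.76 for both arms of miR-143. All of these values share the scaling to the library total.

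The proportion between both miRNAs did not change detectably among groups. The log2 ratio of miR-145-5p to miR-143, taken on CPM + 1, had a median of -8.38. That is 334 to 1 in favour of miR-143, and it ranged from 238 to 580. In reads, miR-145-5p held 0.294% of the miR-143 count at the median, from 0.167% to 0.416%. Group means ran from -8.73 ± 0.41 in gradual reoxygenation at 3 h to -8.25 ± 0.32 in hypoxia at 12 h (SD, n = 3 each). A permutation test of the ratio over the 8 groups gave p = 0.762 (n = 22, 100000 permutations).

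Arm use was strongly one-sided for miR-143 and mildly so for miR-145. As a ratio of CPM + 1, miR-143-3p stood to miR-143-5p at 1541 to 1 at the median, and at 1107 to 2220 in single libraries. In reads, miR-143-5p held 0.0612% of the miR-143-3p count at the median, from 0.0409% to 0.0830%. The log2 ratio of 3p to 5p was lowest in normoxia at 12 h (10.30 ± 0.20) and highest in hypoxia at 12 h (10.88 ± 0.11, SD, n = 3 each). The 3 hypoxic libraries, at 10.74 to 10.95, lay above the 3 normoxic ones, at 10.11 to 10.50, and the arm ratio was not tested. On CPM + 1, miR-145-5p stood to miR-145-3p at 2.63 to 1 at the median, from 1.90 to 4.08. The group ranges of this ratio overlapped between normoxia and hypoxia at 12 h. In reads, miR-145-3p held 37.0% of the miR-145-5p count at the median, from 23.6% to 51.7%.

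**Figure D2:**
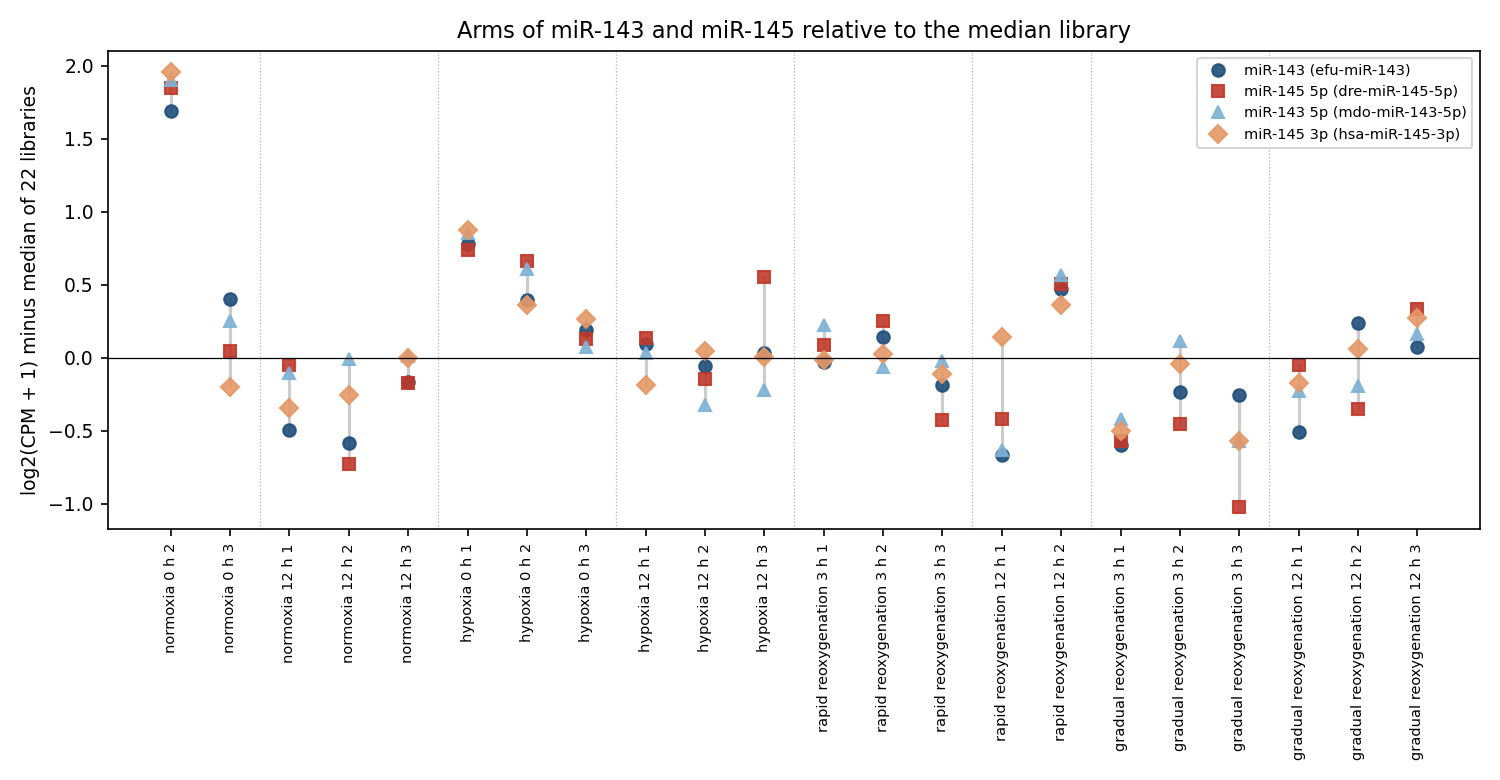
Distance of each of the 22 libraries from the median library, as log2(CPM + 1), for the 4 arms of miR-143 and miR-145, with the arms of a library joined by a line. The 4 arms lie at 1.69 to 1.95 in library 2 of normoxia at 0 h, and in library 1 of hypoxia at 0 h all 4 are again above the median.

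Between normoxia at 12 h and normoxia at 0 h, a comparison of control livers over time, miR-143 was lower at 12 h. Its log2(CPM + 1) differed by -1.46 ± 0.34 (SE, 95% interval -2.18 to -0.74), and it passed the threshold of 0.05 in limma (adjusted p = 0.0226 over 602 rows, Benjamini-Hochberg). That SE uses a spread estimated over all 8 groups, whose pooled SD within groups was 0.40. The 2 libraries of normoxia at 0 h lay at 15.995 and 14.708, so the interval does not measure the spread of that pair alone. All 3 near-copy rows of miR-143 passed, so that 3 of 9 tested member rows fell, against 2.33% of all 602 rows in that direction and 4.82% in either direction. The direction was the same in all 9 member rows, and in 7 of them, near copies counted, the groups did not overlap, against 16.8% of all rows. miR-145-5p differed by -1.26 ± 0.44 (adjusted p = 0.0895), miR-143-5p by -1.11 ± 0.41 (adjusted p = 0.121) and miR-145-3p by -1.08 ± 0.41 (adjusted p = 0.13), and these did not pass. In the last of them the groups overlapped.

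This difference depended on few libraries. Without library 2 of normoxia at 0 h, miR-143 differed by -0.82 (adjusted p = 0.361) and miR-145-5p by -0.36 (adjusted p = 0.749). Without library 3 of normoxia at 0 h, where library 2 alone stood for that group, the differences were -2.10 and -2.16. Leaving out library 1 or library 2 of normoxia at 12 h also ended the miR-143 call, with adjusted p = 0.0612 and 0.0951. From the authors' deposited table, the log2 ratio of the 12 h to the 0 h mean was -1.28 for miR-143 and -1.16 for miR-145-5p, against -1.59 and -1.52 from the libraries used. In the read-based tests all 9 member rows passed in edgeR, against 14.3% of all rows, and all 9 in DESeq2, against 16.1% of all rows.

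Beside this difference, the libraries differed in markers of other cells. Pairs of values at 0 h are given for library 2 and then library 3 of normoxia at 0 h. The miR-144 and miR-451 rows, marks of red blood cells, summed to 823 and 2313 CPM in normoxia at 0 h and to between 7175 and 13971 CPM in normoxia at 12 h. The 3 of 4 pancreatic acinar families with a row (miR-216a, miR-216b and miR-217) summed to 4134 and 4270 CPM at 0 h and to between 470 and 2909 CPM at 12 h. The 5 epithelial families (miR-200a, miR-200b, miR-200c, miR-141 and miR-429) summed to 19714 and 3076 CPM at 0 h and to between 1395 and 2901 CPM at 12 h. Acinar and epithelial sums were thus higher at 0 h without overlap, the direction of miR-143, and the erythroid sum was lower. The epithelial families were mixed in library 3, with miR-200b (416 CPM), miR-200c (247 CPM) and miR-429 (17.2 CPM) below their medians over all libraries. There miR-200a and miR-141 lay above theirs. So did the acinar miR-216b and miR-217, while miR-216a (9.06 CPM against a median of 14.2 CPM) lay below. The 6 striated muscle families summed to 48.6 and 18.9 CPM at 0 h and to between 9.39 and 11.7 CPM at 12 h, again higher at 0 h without overlap. That sum rested mostly on miR-1 (21.5 CPM) and miR-133 (19.3 CPM) in library 2 and on miR-206 (15.0 CPM) in library 3. In library 3, miR-1 (2.89 CPM) and miR-133 (0.850 CPM) lay below their medians over all libraries. The sum of the 4 stromal families with a row (miR-199, miR-199a, miR-199b and miR-214) was lower at 0 h without overlap. It came to 1335 and 2132 CPM at 0 h and to between 2196 and 2604 CPM at 12 h. Within it miR-214 went the other way, at 107 and 110 CPM at 0 h against a median of 66.3 CPM over all libraries. Endothelial and leukocyte sums overlapped, and no list was at 0 in all libraries. The hepatocyte list was mixed. miR-122 was at 37563 and 70974 CPM in the 0 h libraries against a median of 90854 CPM over all libraries. Its other members, miR-192 and miR-194, lay above their medians in both 0 h libraries. The hepatocyte sum of these 3 families was 143234 and 94455 CPM at 0 h and between 104647 and 112565 CPM at 12 h, so the groups overlapped. The 16 rows named miR-122 or miR-122b together took 17.5% to 51.6% of a library's column total, in which a read counts once in each row it matches. The most abundant single row of miR-122 was at 37563 to 109912 CPM. With totals taken without these 16 rows, an alternative chosen after seeing the data, miR-143 differed by -1.07 (limma adjusted p = 0.0334), against -1.46 with full totals. Library 2 of normoxia at 0 h was in both fits. The part of the markers in the difference, miR-122 included, was not tested. In a whole-liver sample, fewer cells of a type and less RNA per cell cannot be told apart.

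The effect of hypoxia on both miRNAs was not resolved. At 12 h, hypoxia against normoxia gave 0.44 ± 0.31 for miR-143 (SE, 95% interval -0.21 to 1.08, limma adjusted p = 0.997) and 0.50 ± 0.39 for miR-145-5p (adjusted p = 0.997). The 3 near-copy rows of miR-143 were higher in all 3 hypoxic libraries than in any normoxic one, against 4.82% of all rows, and none of the 9 member rows passed, against 0.664% of all rows. The minor arms gave -0.13 for miR-143-5p and 0.16 for miR-145-3p. The miR-144 and miR-451 sum was 2534 to 4031 CPM in hypoxia at 12 h and 7175 to 13971 CPM in normoxia at 12 h. It was also below normoxia at 12 h in the rapid (1991 to 2872 CPM) and gradual (863 to 4501 CPM) groups at 12 h. The stromal sum was higher in hypoxia, at 2924 to 3389 CPM against 2196 to 2604 CPM, and the other marker sums overlapped. Within the stromal list the log2 differences were 0.49 for miR-199a, 0.50 for miR-199b and 0.18 for miR-214. The difference of miR-199 went the other way, at -0.26, and none of these passed (limma adjusted p from 0.947 to 0.997). The part of these markers was not tested. At 0 h, hypoxia against normoxia gave -0.59 ± 0.34 for miR-143 (adjusted p = 0.698) and -0.44 for miR-145-5p (adjusted p = 0.83). No member row passed, against 0.498% of all rows. These values depended on the normoxic pair. Without its library 2 they became 0.06 and 0.46, and without its library 3 they became -1.23 and -1.34.

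The difference between the hypoxic and the normoxic change from 0 h to 12 h was 1.03 ± 0.46 for miR-143 (limma adjusted p = 0.486) and 0.93 ± 0.58 for miR-145-5p (adjusted p = 0.864). None of the member rows passed, against 0.997% of all rows. Without library 3 of normoxia at 0 h, where library 2 alone stood for that group, the values were 1.67 and 1.83. Within hypoxia, the change from 0 h to 12 h was -0.43 for miR-143 (adjusted p = 0.795) and -0.33 for miR-145-5p (adjusted p = 0.828). There 7 of 9 member rows were lower without overlap, against 11.5% of all rows, and 0% of the 602 rows passed. Those rows were the near copies of miR-143 and of miR-145-3p, with pma-miR-143-3p and miR-143-5p, so they are not 7 separate measurements.

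Of the 3 comparisons of later libraries with hypoxia at 0 h, gradual reoxygenation at 3 h gave the largest differences for miR-143 and miR-145-5p. There miR-143 differed by -0.82 ± 0.31 (SE, limma adjusted p = 0.267) and miR-145-5p by -1.19 ± 0.39 (adjusted p = 0.21). miR-143-5p differed by -0.80 (adjusted p = 0.327) and miR-145-3p by -0.87 (adjusted p = 0.324). All 9 member rows, near copies counted, were lower, 8 of them without overlap, against 17.3% of all rows. All 9 had an unadjusted p under 0.05, against 14.8% of all rows. None passed after adjustment, and neither did any other row (0% of 602). The miR-144 and miR-451 sum was 9458 to 12791 CPM in the gradual 3 h libraries and 2674 to 4849 CPM in hypoxia at 0 h. The acinar sum was 38.4 to 1388 CPM in the gradual 3 h libraries and 2300 to 3499 CPM in hypoxia at 0 h, and the epithelial sum was 1493 to 2082 CPM and 2420 to 3965 CPM. Acinar and epithelial sums were therefore lower in the gradual group without overlap, like miR-143 and miR-145, and the erythroid sum was higher. The striated muscle sum was also lower without overlap, at 3.58 to 8.89 CPM against 16.4 to 36.9 CPM. The hepatocyte sum was higher without overlap, at 109787 to 120812 CPM against 88560 to 107844 CPM. Stromal, endothelial and leukocyte sums overlapped. The part of these markers in the difference was not tested.

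Rapid reoxygenation at 3 h against hypoxia at 0 h gave -0.48 for miR-143 and -0.54 for miR-145-5p (limma adjusted p = 0.999 for each). Here 5 of 9 member rows were lower without overlap, against 6.81% of all rows, and 0% of rows passed. These comparisons share the hypoxia 0 h libraries. Set against each other at 3 h, gradual and rapid reoxygenation differed by -0.34 for miR-143 (adjusted p = 0.842) and -0.65 for miR-145-5p (adjusted p = 0.666). The gradual libraries were lower without overlap in 6 of 9 member rows, against 8.97% of all rows, and 0% of rows passed. So the lower levels of the gradual group at 3 h did not pass the test in either setting.

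At 12 h the means of both reoxygenation groups were close, but the rapid group was a discordant pair, at 12804 and 28055 CPM of miR-143. The acinar sum in that pair was 32.6 and 3441 CPM, and its part in the values was not tested. Gradual against rapid reoxygenation gave 0.03 for miR-143 (95% interval -0.69 to 0.75) and -0.07 for miR-145-5p (-0.98 to 0.85), with limma adjusted p = 0.999 for both, and 0% of the 602 rows passed. Without library 1 or library 2 of the rapid group the miR-143 difference was -0.53 or 0.60, and the miR-145-5p difference -0.53 or 0.40. Against normoxia at 12 h, rapid reoxygenation gave 0.32 for miR-143 and 0.36 for miR-145-5p (adjusted p = 0.977 for each). From the authors' deposited table, the log2 ratio of these means was 0.09 for miR-143 and -0.03 for miR-145-5p, against 0.42 and 0.41 from the libraries used. In the libraries used, rapid reoxygenation had 2 member rows higher without overlap, the near copies of miR-145-3p, against 8.31% of all rows, and 0% of rows passed. Gradual reoxygenation gave 0.35 (adjusted p = 0.715) and 0.29 (adjusted p = 0.82) against the same normoxic libraries, with no member row called, against 1.66% of all rows called.

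From 3 h to 12 h, rapid reoxygenation gave -0.07 for miR-143 and 0.07 for miR-145-5p (limma adjusted p = 0.998 for both). The near copies of miR-145-3p were again the 2 member rows that were higher without overlap, against 8.8% of all rows, and 0% passed. Gradual reoxygenation gave 0.30 (adjusted p = 0.599) and 0.66 (adjusted p = 0.423), with 2 member rows, the near copies of miR-145-5p, higher without overlap, against 10.5% of all rows, and none called, against 1.83%. The difference between both time courses was 0.37 (adjusted p = 0.781) and 0.59 (adjusted p = 0.707), with no member row called, against 0.166% of all rows.

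Over all 14 comparisons, the fall from normoxia 0 h to normoxia 12 h was the one in which limma called a member row. In the other 13, edgeR and DESeq2 on recovered reads also called 0 member rows. Over all 602 rows, edgeR called 0% to 3.16% in these comparisons and DESeq2 0.166% to 8.8%. Member rows with an unadjusted p under 0.05 there numbered 9 in gradual reoxygenation at 3 h against hypoxia at 0 h, against 14.8% of all rows, and 3 in the difference between the hypoxic and the normoxic change, against 8.97% of all rows. There were 0 elsewhere. A test of any difference among the 8 groups gave adjusted p = 0.221 for miR-143 and 0.32 for miR-145-5p in limma, with 1.5% of all rows called. The same test passed for miR-143 in edgeR (adjusted p = 0.0447) and for both in DESeq2 (adjusted p = 0.00109 and 0.00299). The share of all rows that edgeR and DESeq2 called in this test was not counted, so how common such calls were is not known.

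**Figure D3:**
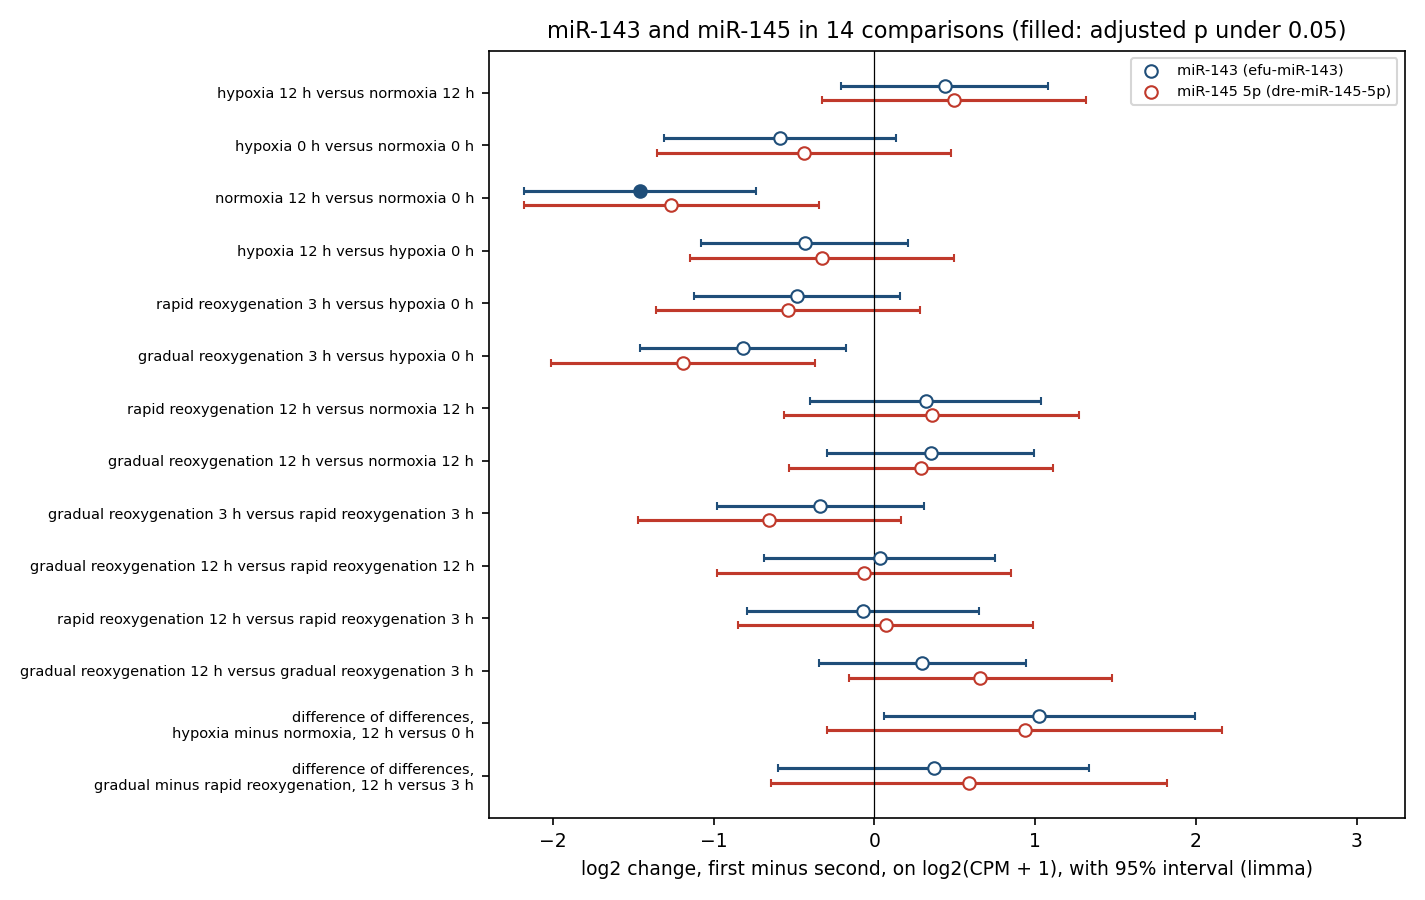
Differences of miR-143 and of the 5p arm of miR-145 in the 14 comparisons, as log2 changes of CPM + 1 (first group minus second) with 95% limma intervals, a filled point marking an adjusted p under 0.05. The filled point is miR-143 in normoxia at 12 h against 0 h, at -1.46.

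Other miRNAs of vessel wall, stroma and striated muscle were set beside miR-143 and miR-145 from a list of 16 family names. Of these, 12 had a tested row, miR-490 had no row, and miR-1a, miR-133a and miR-133b had no separate row at a level that could be tested. Rows of related names, such as miR-126 and miR-126a, can count the same reads. The 12, and the families in the marker sums, may therefore not all be separate measurements. In normoxia at 12 h against 0 h, where miR-143 fell, 6 of the 12 lay above 0 and 6 below, with a median of 0.04 against -0.06 over all rows. None passed in limma, and 5 had an unadjusted p under 0.05, against 21.9% of all rows. edgeR and DESeq2 called 4 each, against 14.3% and 16.1% of all rows. Among them, miR-199a, a miRNA of fibroblasts and stellate cells in mammals, gave 0.67 ± 0.23 (SE, adjusted p = 0.0959) and miR-199b gave 0.97 ± 0.32 (adjusted p = 0.0812), in the opposite direction to miR-143. The endothelial miR-126 and miR-126a gave 0.14 and 0.19, and miR-214, which is made from a transcript shared with miR-199a in mammals, gave -0.84 ± 0.39 (adjusted p = 0.223). The striated muscle miRNAs miR-1 and miR-133 gave -1.49 ± 0.60 (adjusted p = 0.156) and -1.88 ± 0.65 (adjusted p = 0.0895), from median levels of 3.22 and 1.08 CPM.

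In gradual reoxygenation at 3 h against hypoxia at 0 h, 5 list members lay above 0 and 7 below, with a median of -0.20 against 0.02 over all rows. None passed in limma, and 3 had an unadjusted p under 0.05, against 14.8% of all rows. edgeR called 0, against 0% of all rows, and DESeq2 called 1, against 3.49%. miR-199a gave 0.43, miR-126 gave -0.24 and miR-214 gave -0.22. Other stromal and vessel miRNAs thus had differences of either sign, and which cells of these livers the miR-143 and miR-145 reads came from was not tested.

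The library with the most miR-143 and miR-145 had low values of some other vessel and stromal miRNAs and not of others. In library 2 of normoxia at 0 h, miR-143 lay 1.69 above the median library on the log2(CPM + 1) scale, miR-145-5p 1.85, miR-143-5p 1.90 and miR-145-3p 1.95. The same library had the lowest value of all 22 for miR-199a (-1.14 from the median), miR-199b (-1.11), miR-126 (-0.85), miR-126a (-0.76) and miR-222 (-0.84). For the stromal miR-214 it was above the median (0.69, rank 4 of 22), and for miR-199 (-0.39), miR-126b (-0.29) and miR-221 (-0.24) it was below the median and not lowest. It was also lowest for miR-122 (-1.27), miR-144 (-2.53) and miR-451 (-2.25). It was highest for the epithelial miR-200a (2.82), miR-200b (2.37), miR-200c (2.49), miR-141 (2.94) and miR-429 (2.53), for miR-192 (2.61) and miR-194 (2.92), which liver shares with gut and kidney, for miR-1 (2.42) and miR-133 (3.29), and for the leukocyte miR-155 (2.55). Its other leukocyte miRNAs were mixed, with miR-142 (1.18) and miR-142a (1.20) above the median and miR-223 (-0.31) and miR-150 (-0.09) below it. The striated muscle miR-206 (0.37) was above the median and not highest. Library 3 of normoxia at 0 h was within 0.40 of the median for the 4 arms. What the markers have to do with the miR-143 and miR-145 levels was not tested.

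**Figure D4:**
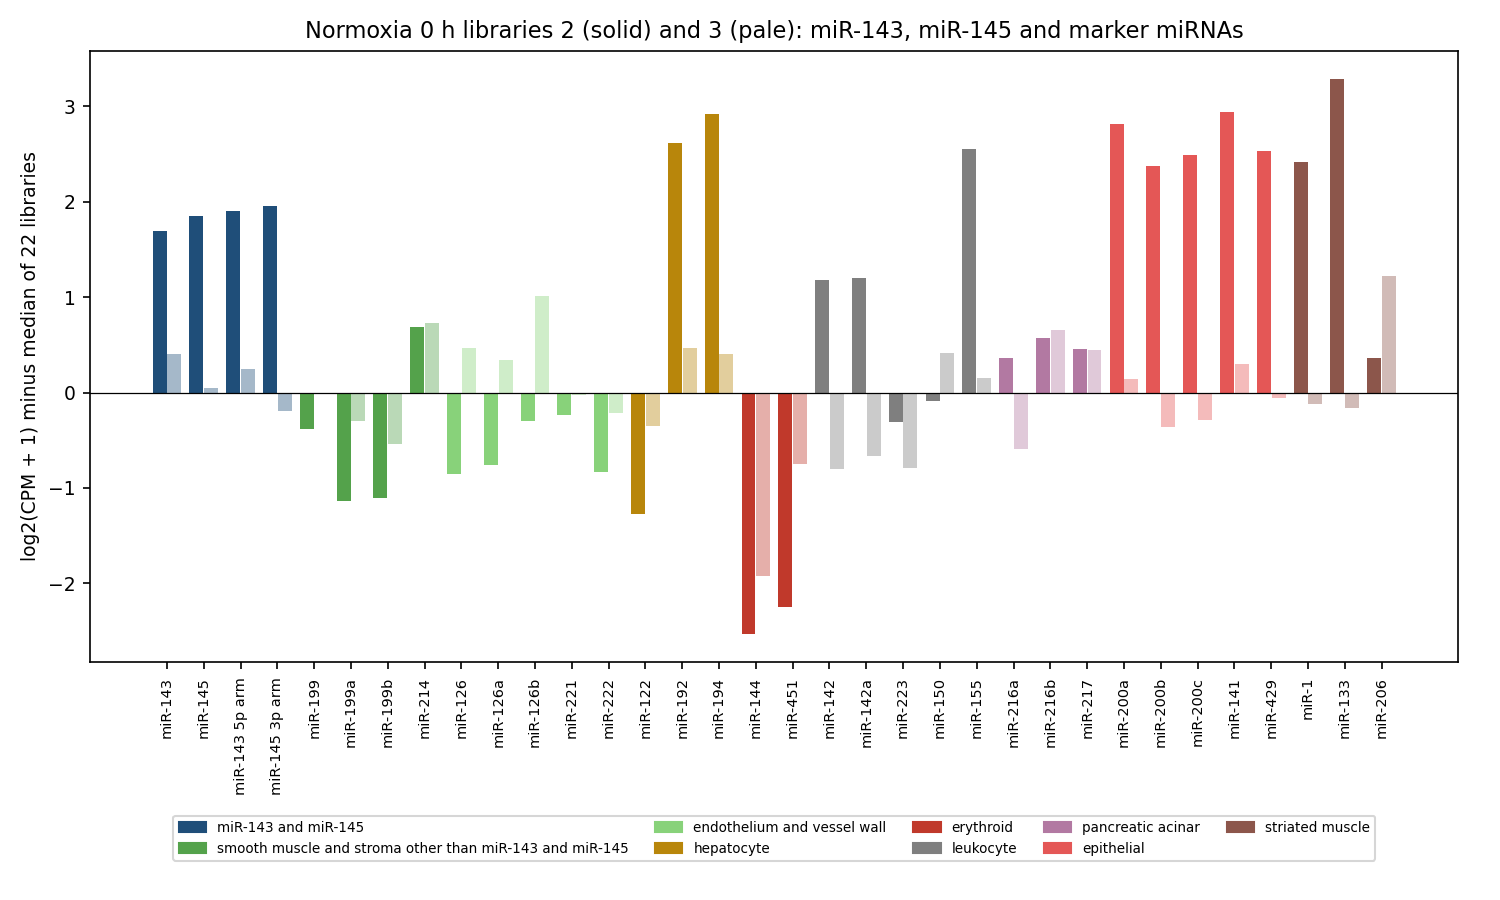
Distance of both normoxia 0 h libraries from the median of the 22 libraries, as log2(CPM + 1), for the 4 arms of miR-143 and miR-145 and for marker miRNAs coloured by list. Solid bars (library 2) lie at 1.69 to 1.95 for the 4 arms and at 2.37 to 2.94 for the epithelial miRNAs, and below 0 for miR-199a, miR-126, miR-122, miR-144 and miR-451.

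Members of the epithelial miR-200 family were among the miRNAs with the pattern most like that of miR-143. Among 159 other family names with a mean of at least 10 CPM, each by its most abundant row, the 6 highest Pearson correlations of log2(CPM + 1) with miR-143 over 22 libraries were those of miR-135b (0.87), miR-429 (0.87), miR-141 (0.86), miR-200a (0.85), miR-23a (0.85) and miR-200b (0.78). The 6 highest for miR-145-5p were the same 6 families, from miR-200a and miR-429 (0.87 each) to miR-135b and miR-23a (0.83 each). In mammals miR-200a, miR-200b, miR-429 and miR-141 belong to the miR-200 family of epithelial cells. Without library 2 of normoxia at 0 h, the correlations with miR-143 were 0.74 for miR-429, 0.70 for miR-141 and 0.51 for miR-200b. Of the 6 highest families, 5 were the same for miR-143 without that library and 3 for miR-145-5p. The families that entered, named here after their values were seen, were miR-10c (0.67) for miR-143, and miR-125a (0.78), miR-10c (0.73) and the leukocyte miR-150 (0.72) for miR-145-5p. The acinar miR-216b (0.64) and miR-217 (0.61) then also stood above miR-200b in likeness to miR-143. With library totals taken without the miR-122 rows, the values for miR-429, miR-141 and miR-200b over all 22 libraries were 0.79, 0.80 and 0.68.

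The same 3 families had the lowest correlations with both miRNAs. They were miR-128 (-0.91), miR-122 (-0.87) and miR-122b (-0.84) for miR-143, and -0.74, -0.80 and -0.81 for miR-145-5p. For miR-128, whose mean level was 591 CPM, the value with miR-143 was -0.86 without library 2 of normoxia at 0 h, and -0.84 with totals taken without the miR-122 rows. With those totals the values with miR-143 were -0.77 for miR-122 and -0.75 for miR-122b.

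Other vessel and stromal miRNAs spread widely in their likeness to miR-143. The correlation with miR-143 was -0.63 for miR-199a, -0.51 for miR-199, -0.51 for miR-222, -0.22 for miR-221 and 0.56 for miR-214, which ranked 25 of 159. It was -0.10 for miR-126a and -0.12 for miR-126, which became 0.58 and 0.54 without library 2 of normoxia at 0 h and -0.51 and -0.48 with totals taken without the miR-122 rows. For the endothelial miRNAs the sign therefore depended on 1 library, and the size also on the scaling. For miR-199a the correlation was negative in all 3 settings, but its size also depended on that library. It was -0.29 without library 2 of normoxia at 0 h and -0.70 with totals taken without the miR-122 rows. Without the same library the correlation was -0.40 for miR-199, -0.32 for miR-222, -0.17 for miR-221 and 0.51 for miR-214. All of these correlations are descriptions over libraries that share the scaling to a total.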

How the data were processed

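Per the labels, total RNA from liver was extracted with Trizol and sequenced as single reads of 50 bases. Bowtie is named, without a version, per the submitters' processing notes, and the genome build, the miRNA annotation and the counting tool were not given in any source used here. The authors' deposited table is named as TPM, but each library column sums to 1000000 without length scaling, so its values are CPM made by the authors. Whole reads could be recovered for 100% of values within a tolerance of 0.01. A read counts in each row it matches, so column totals exceed the number of reads. The floor of 3 reads covers counting error alone.

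Columns were assigned to groups from the times in their names and from how many libraries each group has, the letters in the names being unexplained, and library numbers are those of the table. Of the 8 deposited means, 6 equal the mean of their libraries within rounding.

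Rows reaching 1 CPM in 2 or more libraries entered the test on log2(CPM + 1) in limma 3.58.1 (R 4.3.3, mean-variance trend, all 8 groups in 1 fit), with Benjamini-Hochberg adjustment over 602 rows and a threshold of 0.05. Recovered read counts of the deposited table were tested with DESeq2 1.42.0 and with the quasi-likelihood test of edgeR 4.0.16. The limma and permutation steps were tested on simulated data. Permutations used the seed 143. Figures were drawn with matplotlib 3.10.9 in Python 3.11.15.

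Members and lists were chosen with earlier results of these data known. Named are all member rows, the most abundant row of each arm, the 6 families most like and the 3 least like them, and listed marker miRNAs where a result turns on them. Library totals without the miR-122 rows, and the alternatives for the miR-145 to miR-143 ratio, were chosen after seeing the data. The other alternatives were a pseudocount of 10, no filter, identical rows kept, TMM factors, a replicate block and leaving out each library.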

Additional observations from a re-analysis of the deposited data

How the results depend on the processing

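Of 462 values of miR-143 and miR-145 under alternatives, 426 kept their direction and their side of the threshold, 4 lost a call, 12 gained one and 20 uncalled ones turned in sign. The cause was not tested. The miR-143 call between normoxia 12 h and 0 h was lost without a low-value filter (-1.46, adjusted p = 0.0557), and over the other settings that left out no library it was kept. miR-145 passed in that comparison in edgeR (-1.54) and DESeq2 (-1.66). The test over the 8 groups passed for miR-143 in edgeR (adjusted p = 0.0447) and for both in DESeq2 (0.00109 and 0.00299), with the share of all rows called there not counted. In gradual against rapid reoxygenation at 12 h, miR-145 turned to 0.11 with TMM factors and to 0.10 in edgeR (0.0999) and DESeq2 (0.100). In rapid reoxygenation at 12 h against 3 h, miR-143 turned to 0.02 in edgeR (0.0189).

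With the library number as a replicate block, miR-145 turned to 0.02 (0.0183) in gradual against rapid reoxygenation at 12 h and to -0.01 (-0.0126) in rapid reoxygenation at 12 h against 3 h. The miR-143 fall in normoxia was -1.40 with the replicate block (adjusted p = 0.0268), and no call of miR-143 or miR-145 changed. Deviations from the group means correlated with r from -0.47 to 0.49 (median -0.06) over 70 pairs of libraries that share a number. Over 141 pairs with other numbers the median was 0.04. No test of pairing was run, and in a group of 2 libraries the deviations mirror each other. Whether the numbers pair samples is therefore not decided by these values.

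With single libraries left out, miR-143 ranged from -2.10 to -0.82 in normoxia 12 h against 0 h, and miR-145 from -2.16 to -0.36. In hypoxia against normoxia at 0 h the ranges were -1.23 to 0.0560 for miR-143, -1.34 to 0.46 for miR-145, -1.39 to 0.26 for miR-143-5p and -1.45 to 0.70 for miR-145-3p. The hypoxic minus the normoxic change ranged from 0.38 to 1.67 and from 0.0343 to 1.83 for miR-143 and miR-145, and adjusted p over the 8 groups from 0.00607 to 0.349 and from 0.00839 to 0.521. Ranges for miR-143 and miR-145 were -0.25 to 0.88 and -0.10 to 0.82 in rapid reoxygenation against normoxia at 12 h, -0.64 to 0.49 and -0.39 to 0.53 in rapid reoxygenation at 12 h against 3 h, and -0.53 to 0.60 and -0.53 to 0.40 in gradual against rapid reoxygenation at 12 h. For the gradual minus the rapid change the miR-143 range was -0.20 to 0.93. The p of the miR-145 to miR-143 ratio ranged from 0.349 to 0.976.

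The number of all tested rows called in normoxia 12 h against 0 h was 29, and 11 to 97 over settings and 4 to 193 with a library left out. In hypoxia against normoxia at 0 h it was 3, and 0 to 43 and 0 to 119. Over the other comparisons, settings that left out no library gave 0 to 53 calls. Each of the 4 arms had at least 164 reads per library, while at 0.371 CPM on average oan-miR-145-5p was too low to test.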
